A study of Mus musculus with 9 samples.

Results

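The genes described here are the integrins and a set of matrix glycoproteins that integrins bind, measured in adult olfactory bulb stem cell (aOBSC) neurospheres. The rule goes by gene symbol and reads no measured value: it takes every probe set annotated with a single symbol of an integrin alpha subunit, an integrin beta subunit, nephronectin (Npnt), tenascin C (Tnc), tenascin R (Tnr), fibronectin (Fn1), vitronectin (Vtn) or 1 of the thrombospondins. This gave 73 of 45037 probe sets, which stand for 33 of 18193 genes: 16 alpha subunits (36 probe sets), 8 beta subunits (18 probe sets) and 9 ligands (19 probe sets). Osteopontin (Spp1) and the alpha subunits Itga11 and Itgad were not analysed here.

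The cells came from the olfactory bulb of adult mice, of the CD1 or C57Bl/6 strain according to the methods, and grew as floating spheres in DMEM/F12-N2 medium with both growth factors, FGF-2 and EGF, at 20 ng/ml each. The 3 conditions differed only in how often these factors were supplied: at intervals of 1 day (Ctr), 2 days (C2) or 4 days (C4). Cells had received daily additions until passage 3 and then spent 2 more passages in their condition before the assays. RNA was taken after 7 days in culture. By the paper's account, the cells had then gone 1 day (C2) or 3 days (C4) without added factors, and no such time is given for Ctr. In C4, the longer time since the last addition cannot be told apart from the interval. Each condition had 3 Affymetrix GeneChip mouse arrays. The array cultures came from adult mice of more than 1 age, and which mouse, strain or age each array came from is not given in the sources used here. The labels name no genetic change, and no condition was free of both factors.

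Integrins are membrane receptors built from an alpha and a beta subunit, which together set the ligand that is bound. The beta1 subunit pairs with many alpha subunits, and the alpha v subunit pairs with several beta subunits, among them beta1, beta5 and beta8. On the matrix side, nephronectin is a ligand of the alpha8 beta1 integrin, fibronectin is bound by alpha5 beta1, alpha4 beta1 and alpha v integrins, and tenascin C, a matrix protein of neural stem cell niches, is bound by alpha9 beta1 and alpha v integrins. Inside the cell, talin and kindlin bind the tails of the beta subunits and link them to actin through adhesion complexes.

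Of the 33 genes, 13 had a probe set over 4 (log2 GCRMA value) on at least 3 arrays, the level used here as the floor of measurable signal, and Tnr passed 4 on 2 arrays only. The remaining 19 genes stayed under 4 on all 9 arrays in all their probe sets. Against Ctr, C4 spheres had less Npnt, Itga8, Itga4 and Tnc mRNA and more Itgb5 mRNA, while in C2 spheres Npnt alone was called. In RNA from whole spheres, fewer cells of a type and less mRNA per cell cannot be told apart. Among the 73 probe sets, 9 (12.3%) were called in C4 against Ctr at an adjusted p under 0.05 (limma, adjusted over 45037 probe sets), beside 6.29% of all probe sets tested. Of these, 3 were higher, beside 3.78% of all, and 6 were lower, beside 2.51% of all. All 3 higher ones belong to Itgb5. By gene, counting for each the probe set with the highest mean, 1 rose and 4 fell of 33 (15.2%), beside 9.2% of all genes. In C2 against Ctr, 1 probe set was called (1.37%), beside 1.7% of all probe sets, and 1 gene, beside 2.52% of all genes. In C4 against C2, 9 probe sets were called (12.3%), beside 5.25% of all, with 2 higher, beside 2.86%, and 7 lower, beside 2.39%. The median difference of the 73 probe sets and that of all probe sets were both 0.00 in C4 against Ctr. Since 46 of the 73 were under 4 on all arrays, this median cannot show a shift in the probe sets with signal. With arrays centred on their median, the calls over all probe sets turned from 1702 higher and 1131 lower to 1761 higher and 2039 lower in C4 against Ctr, and from 507 higher and 260 lower to 579 higher and 551 lower in C2 against Ctr, whereas the member calls became 4 higher and 10 lower in C4. A difference of at least 1 between means was the threshold the study used. It was reached by 8 of the 73 probe sets in C4 against Ctr, beside 0.693% of all, and by 0 in C2. In C2, 5 member probe sets had an unadjusted p under 0.05, and the share of all probe sets under that level was not counted.

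The promoters of the 5 called genes are shown because these are the members whose level differed in C4, 4 lower and 1 higher than in Ctr. Each line holds the 250 bases before the most upstream RefSeq start of the gene in GRCm38.p6, written 5′ to 3′ on the gene's strand, and capitals mark every match to the motifs searched on both strands. Npnt lies at chr3:132950292-132950541 (minus strand), Itga8 at chr2:12301945-12302194 (minus), Itga4 at chr2:79255176-79255425 (plus), Tnc at chr4:64047016-64047265 (minus) and Itgb5 at chr16:33829415-33829664 (plus).
Npnt: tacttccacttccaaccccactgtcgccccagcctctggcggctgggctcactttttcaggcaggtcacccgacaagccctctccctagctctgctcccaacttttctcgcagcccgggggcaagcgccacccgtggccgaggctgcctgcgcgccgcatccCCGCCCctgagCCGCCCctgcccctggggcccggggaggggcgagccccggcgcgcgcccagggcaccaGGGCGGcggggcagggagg
Itga8: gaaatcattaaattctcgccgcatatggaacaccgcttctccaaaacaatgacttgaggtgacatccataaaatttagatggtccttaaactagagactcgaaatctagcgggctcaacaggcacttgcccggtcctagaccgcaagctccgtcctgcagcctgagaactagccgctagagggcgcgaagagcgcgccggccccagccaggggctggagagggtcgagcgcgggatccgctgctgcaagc
Itga4: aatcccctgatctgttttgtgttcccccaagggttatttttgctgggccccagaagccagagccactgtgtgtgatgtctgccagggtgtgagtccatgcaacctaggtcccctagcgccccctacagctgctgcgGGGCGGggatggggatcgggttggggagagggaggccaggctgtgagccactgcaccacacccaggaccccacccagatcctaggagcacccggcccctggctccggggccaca
Tnc: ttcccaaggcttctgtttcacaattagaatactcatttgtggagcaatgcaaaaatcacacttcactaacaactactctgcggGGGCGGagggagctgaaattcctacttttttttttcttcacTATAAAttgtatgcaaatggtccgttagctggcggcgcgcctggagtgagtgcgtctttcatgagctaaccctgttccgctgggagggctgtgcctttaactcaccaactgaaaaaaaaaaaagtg
Itgb5: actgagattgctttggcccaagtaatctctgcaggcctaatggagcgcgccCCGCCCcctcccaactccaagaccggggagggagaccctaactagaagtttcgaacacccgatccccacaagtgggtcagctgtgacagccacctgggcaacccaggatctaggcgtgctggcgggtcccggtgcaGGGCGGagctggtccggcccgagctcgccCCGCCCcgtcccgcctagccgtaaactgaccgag
The motifs were the AP-1 site TGANTCA, the cAMP response element TGACGTCA, the ETS site CCGGAA, the EGR site GCGTGGGCG, the GC box GGGCGG and the TATA box TATAAA. AP-1, ETS and EGR factors are known as targets of growth factor signalling. None of the 5 windows held a match to the AP-1, cAMP response, ETS or EGR letters, which occur in 6.75%, 1.55%, 12% and 0.536% of the 32851 RefSeq windows of this length. GC boxes, found in 32.7% of all windows, began at -88, -77 and -19 in Npnt, at -114 in Itga4, at -167 in Tnc, and at -199, -63 and -34 in Itgb5, counted in bases from the start, with -1 the last base shown. The Tnc window alone held the TATA box letters, at -126, which 12.4% of all windows hold. The share of G and C lay between 44.8% (Tnc) and 74% (Npnt), beside a median of 52.4% over all windows. Of the 33 genes, 24 had a window, and 10 of these 24 held a GC box.

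Among the ligands, Npnt had the larger of the 2 called differences in C4. The probe set that represents it stood at 8.42, 8.49 and 8.21 on the Ctr arrays, 7.68, 7.65 and 7.63 on the C2 arrays and 6.34, 6.34 and 6.60 on the C4 arrays. The 3 conditions did not overlap, and the level stepped down with each longer interval. C4 was 3.86-fold lower than Ctr (log2 difference -1.95 ± 0.0951 SE, n = 3 arrays each, adjusted p = 2.04e-04), C2 was 1.65-fold lower than Ctr (-0.72 ± 0.0951, adjusted p = 0.0226), and C4 was 2.34-fold lower than C2 (-1.23 ± 0.0951, adjusted p = 9.71e-04). A separate probe set of the gene measured 7.78, 7.98 and 7.83 in Ctr, 7.57, 7.06 and 7.53 in C2 and 6.12, 6.43 and 6.40 in C4. It too fell in C4 against Ctr (-1.55, adjusted p = 0.0027) and against C2 (-1.07, adjusted p = 0.0121), whereas its difference between C2 and Ctr was -0.48 with an adjusted p of 0.302. The 3 remaining Npnt probe sets were under 4 on every array. The decrease in C4 was called in all 9 fits that each left out 1 array. The decrease in C2 was not: the adjusted p was 0.0773 and 0.0747 without Ctr array 1 or 2, and 0.0718, 0.0826 and 0.0828 without C2 array 1, 2 or 3.

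The receptor subunit that binds nephronectin, Itga8, showed the same order of conditions near the floor. Its brighter probe set stood at 4.91, 4.87 and 4.47 in Ctr, 3.64, 4.37 and 3.87 in C2 and 2.41, 2.38 and 2.60 in C4. All Ctr arrays were above 4, 2 of the 3 C2 arrays were below it, and all C4 arrays were close to 2.27, the lowest value these probe sets take. C4 differed from Ctr by -2.28 ± 0.209 (SE, adjusted p = 0.00187) and from C2 by -1.50 (adjusted p = 0.0102), and C2 differed from Ctr by -0.79, with a 95% interval of -1.29 to -0.29 and an adjusted p of 0.174. Since the C4 arrays and the C2 mean (3.96) are under the floor, the sizes of these differences are not measured folds. The second Itga8 probe set was under 4 on all arrays. Itgb1, the partner of alpha8, stood at 11.06, 11.13 and 11.27 in Ctr, 11.11, 11.06 and 11.17 in C2 and 10.92, 10.86 and 10.99 in C4. Its C4 arrays all lay below the Ctr arrays, by -0.23 (95% interval -0.38 to -0.08, adjusted p = 0.111), and a second Itgb1 probe set differed by -0.17 (adjusted p = 0.238).

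**Figure D1:**
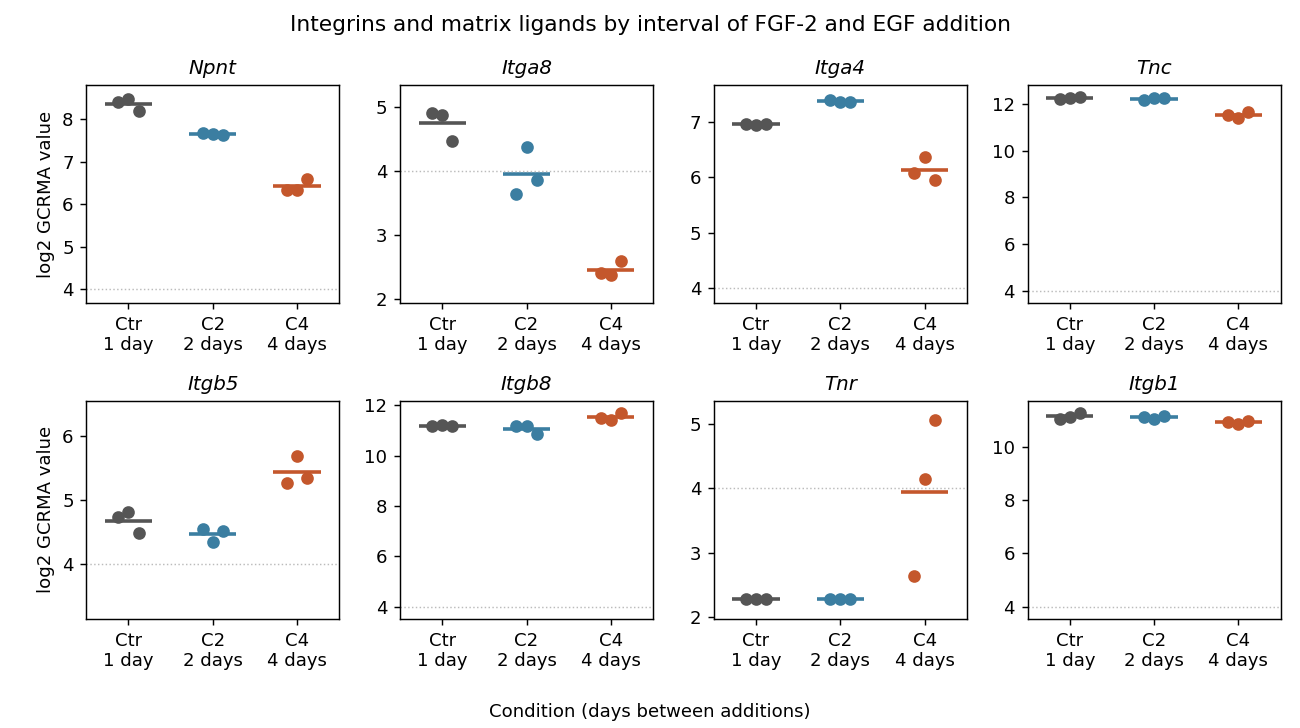
Values of 8 member genes on each of the 9 arrays (points) with condition means (lines), against the days between additions of FGF-2 and EGF; the y axis is the log2 GCRMA value of the probe set of highest mean, and the dotted line marks the floor of 4. Npnt and Itga8 step down from Ctr through C2 to C4, Itga4 and Tnc are low in C4 alone, and Itgb5 is high in C4 alone.

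Itga4, the alpha subunit of the receptors for fibronectin and VCAM-1, had a C2 mean above Ctr and a C4 mean below it. It measured 6.97, 6.94 and 6.97 in Ctr, 7.40, 7.37 and 7.36 in C2 and 6.07, 6.36 and 5.96 in C4, with no overlap between any 2 conditions. C4 was 1.77-fold lower than Ctr (-0.83 ± 0.0938 SE, adjusted p = 0.00416) and 2.37-fold lower than C2 (-1.24, adjusted p = 8.54e-04). C2 was above Ctr by 0.42 (95% interval 0.19 to 0.64) with an adjusted p of 0.109, which became 0.011 without C4 array 2, whose group is not part of that comparison but enters the shared estimate of spread. A second probe set, at 7.07, 7.04 and 6.60 in Ctr, 7.54, 7.24 and 7.28 in C2 and 6.04, 5.49 and 6.05 in C4, fell in C4 against Ctr (-1.04, adjusted p = 0.0307) and against C2 (-1.49, adjusted p = 0.00877). Its call against Ctr held in 1 of the 9 fits with an array left out, the one without Ctr array 3 (adjusted p = 0.0315), and reached an adjusted p of 0.11 without Ctr array 2, while its call against C2 held in all 9. Another probe set was also lower in C4 than in Ctr, by -1.44 with an adjusted p of 0.0524, and the last 2 were at the floor. In C2 against Ctr, the second probe set differed by 0.45 (adjusted p = 0.539), and the one with -1.44 in C4 differed by -0.02.

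Tnc carried strong signal on every array and was lower in C4 alone. It stood at 12.19, 12.24 and 12.29 in Ctr, 12.17, 12.25 and 12.24 in C2 and 11.52, 11.39 and 11.64 in C4. The Ctr and C2 arrays overlapped fully (-0.02, 95% interval -0.18 to 0.13, adjusted p = 1). C4 was 1.65-fold lower than Ctr (-0.72 ± 0.0651 SE, adjusted p = 0.00176) and 1.63-fold lower than C2 (-0.70, adjusted p = 0.00206). The second Tnc probe set gave 9.15, 8.99 and 9.15 in Ctr, 9.46, 9.39 and 9.30 in C2 and 8.48, 8.28 and 8.83 in C4. Its C4 arrays were below all others, with -0.57 against Ctr (adjusted p = 0.0682) and -0.85 against C2 (adjusted p = 0.0167). The call against C2 was lost without C2 array 1 (adjusted p = 0.0683), C2 array 2 (0.0658) or C4 array 1 (0.057). Itga9, the alpha subunit of a tenascin C receptor, was under 4 on all arrays.

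Itgb5, which pairs with alpha v to bind vitronectin and the secreted protein MFG-E8, was the member that rose. Its probe set of highest mean measured 4.73, 4.81 and 4.48 in Ctr, 4.54, 4.35 and 4.51 in C2 and 5.26, 5.69 and 5.34 in C4. All C4 arrays were above all others, and Ctr and C2 overlapped. C4 was 1.69-fold higher than Ctr (0.75 ± 0.138 SE, adjusted p = 0.0256) and 1.95-fold higher than C2 (0.96, adjusted p = 0.0113). The call against Ctr was lost in 6 of the 9 fits that left out an array, with an adjusted p of 0.0713, 0.0542 and 0.0689 without Ctr array 1, 2 or 3, of 0.0508 and 0.0523 without C2 array 1 or 3, and of 0.0589 without C4 array 3.

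A second Itgb5 probe set stood at 3.49, 3.58 and 3.49 in Ctr, 3.18, 3.51 and 3.52 in C2 and 4.83, 5.14 and 5.34 in C4, so that only the C4 arrays passed the floor, and its differences from Ctr and C2 are set against values under the floor and are not measured folds. The fitted difference was 1.58 ± 0.148 (SE) against Ctr (adjusted p = 0.00197) and 1.70 against C2 (adjusted p = 0.00153), both called in all 9 fits with an array left out. Another probe set, at 4.62, 4.60 and 4.29 in Ctr, 4.62 on all C2 arrays and 5.44, 5.27 and 5.00 in C4, differed by 0.73 from Ctr (adjusted p = 0.0241) and by 0.61 from C2 (adjusted p = 0.0515). Its call against Ctr held in 1 of those 9 fits, the one without C4 array 3 (adjusted p = 0.0172), with an adjusted p of up to 0.0825, reached without C4 array 2. The remaining one was above 4 on C4 array 1 alone, with 1.08 against Ctr and an adjusted p of 0.286. Vtn, the other well known ligand of this receptor, was under 4 on all arrays.

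**Figure D2:**
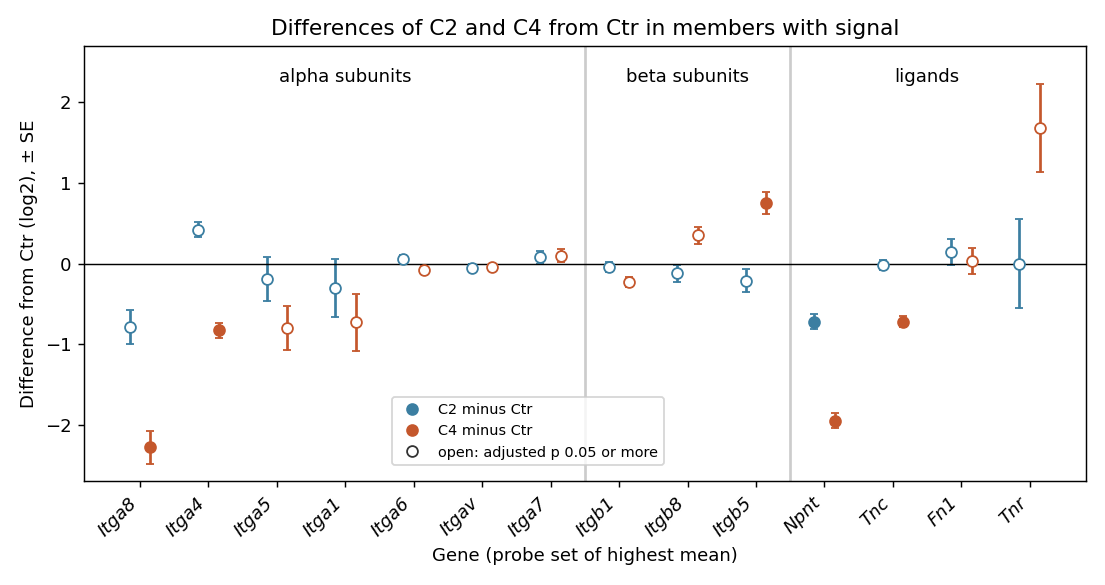
Difference of C2 and of C4 from Ctr in each member gene that passed 4 on any array, as log2 values with SE bars (3 arrays a condition), filled where the adjusted p is under 0.05. In C4, Itga8, Itga4, Npnt and Tnc lie below 0 and Itgb5 above it, and in C2 Npnt alone is filled.

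The other integrin subunits with signal were not called. Itgav, the alpha subunit shared by the alpha v receptors, stood between 12.14 and 12.27 on all 9 arrays. Its difference was -0.04 in C4 against Ctr (95% interval -0.13 to 0.06, adjusted p = 0.778) and -0.05 in C2 against Ctr (-0.14 to 0.04, adjusted p = 0.735). Itga6, a laminin receptor subunit often used to mark stem cells, differed by -0.08 in C4 against Ctr (-0.19 to 0.03, adjusted p = 0.551), and Itga7, also a laminin receptor subunit, by 0.10 (-0.09 to 0.29, adjusted p = 0.632).

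Itgb8, which with alpha v frees active TGF-beta from its latent complex, stood at 11.20, 11.21 and 11.18 in Ctr, 11.17, 11.19 and 10.87 in C2 and 11.51, 11.42 and 11.70 in C4. Its C4 arrays were above all others, by 0.35 against Ctr (95% interval 0.10 to 0.59, adjusted p = 0.134) and by 0.47 against C2 (0.22 to 0.71, adjusted p = 0.0566). Itga5, the alpha subunit of the classical fibronectin receptor, measured 6.03, 5.47 and 5.87 in Ctr, 5.38, 5.46 and 5.95 in C2 and 4.61, 4.89 and 5.46 in C4. Its difference of -0.80 in C4 against Ctr (95% interval -1.46 to -0.15) had an adjusted p of 0.198. Itga1, a collagen receptor subunit, differed by -0.73 (-1.59 to 0.13, adjusted p = 0.43), with C4 array 2 at 3.52 and the other 8 arrays between 4.70 and 5.50.

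Fibronectin itself was not called in any comparison of the fit over all 9 arrays. Fn1 stood at 7.54, 7.55 and 7.52 in Ctr, 7.66, 7.68 and 7.68 in C2 and 7.19, 7.59 and 7.90 in C4. The arrays of Ctr and those of C2 lay close together, while the C4 arrays spread to both sides of them (C4 against Ctr 0.03, 95% interval -0.36 to 0.41, adjusted p = 1). A second Fn1 probe set, over 4 on 8 arrays, differed by 0.51 in C4 against Ctr (95% interval -0.16 to 1.17, adjusted p = 0.517). Tnr, a tenascin of the adult nervous system made largely by oligodendrocyte-lineage cells, was at 2.27 on all Ctr and C2 arrays and at 2.64, 4.14 and 5.06 in C4. It was thus above the floor on 2 C4 arrays and nowhere else. The difference of 1.68 had an adjusted p of 0.178. Without C4 array 1 it was 2.33 (adjusted p = 0.00801), and it was also called with all arrays kept and centred on their median.

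The 19 genes under 4 on all arrays form recognisable groups. The leukocyte subunits Itgae, Itgal, Itgam, Itgax, Itgb2 and Itgb7 were among them, as were the platelet subunit Itga2b and its partner Itgb3. The same held for Itgb4 and Itgb6, known from epithelia, for the collagen receptor subunits Itga2 and Itga10, for the laminin receptor subunit Itga3 and for Itga9. All 4 thrombospondins (Thbs1, Thbs2, Thbs3 and Thbs4) and Vtn completed the group. At this floor a difference in these genes was not detectable, and their values do not show that the mRNA is absent.

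**Figure D3:**
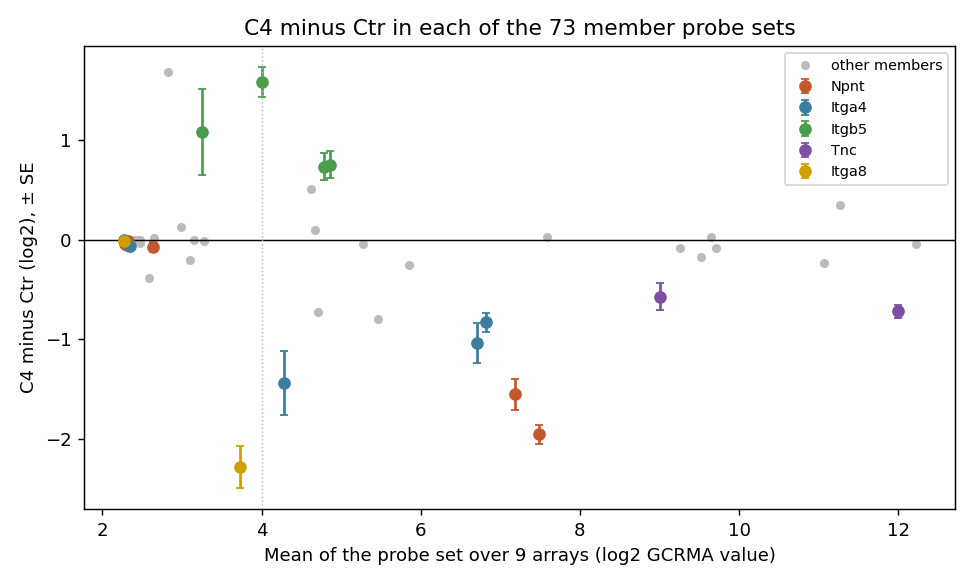
Difference between C4 and Ctr (log2) in each of the 73 member probe sets against its mean over the 9 arrays (log2 GCRMA value), with SE bars for the 5 called genes and the floor of 4 as a dotted line. For each of the 5 genes, probe sets that pass the floor lie on the same side of 0, and those that stay under it on every array lie at about 0.

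Of the 33 genes, 20 had more than 1 probe set, and 36 of the 73 probe sets varied by less than 0.1 over the 9 arrays. For Npnt, Itga4, Tnc and Itgb5, every probe set with signal had the same direction in C4 against Ctr, 2 for Npnt, 3 for Itga4, 2 for Tnc and 4 for Itgb5, counting for Itgb5 the one that passed 4 on 1 array. In none of the 33 genes was a probe set called in the direction opposite to another.

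Integrin partners, mostly membrane proteins and a few secreted ligands, changed in both directions in C4. Of 26 listed, 5 rose, 5 fell and 7 stayed under 4 on all arrays (median difference 0.00), where 5.65% of all genes rose and 3.55% fell. Vcam1, the cell surface ligand of alpha4 beta1, stood at 7.09, 7.24 and 7.29 in Ctr, 7.69, 7.37 and 7.53 in C2 and 8.76, 8.83 and 8.86 in C4, and rose by 1.60 against Ctr (adjusted p = 2.92e-04). Mfge8, a ligand of the alpha v beta5 receptor, stood at 10.16, 10.15 and 10.28 in Ctr, 10.20, 10.28 and 10.23 in C2 and 11.24, 11.20 and 11.21 in C4, and rose by 1.02 against Ctr (adjusted p = 1.11e-04). Thus Vcam1 and Itga4 moved in opposite directions in C4, and Mfge8 and Itgb5 in the same direction. The tetraspanin Cd81 and the alpha4 beta1 ligand Jam2 each rose by 0.20 (adjusted p = 0.00603 and 0.0215).

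Slc3a2, the CD98 heavy chain that binds the tails of beta subunits, fell by 0.66 in C4 against Ctr (adjusted p = 8.34e-05). It rose by 0.61 in C2 against Ctr (adjusted p = 5.59e-04). The tetraspanin Tspan4 had the same pattern as Slc3a2, with -0.83 in C4 (adjusted p = 0.00128) and 0.40 in C2 (adjusted p = 0.0478). The Itga4 probe set of highest mean also had its C2 and C4 means on opposite sides of Ctr, but its rise in C2 was not called. The heparan sulphate proteoglycan Sdc1 fell by 0.41 in C4 and by 0.37 in C2 (adjusted p = 0.00193 and 0.0106). The tetraspanin Cd151, a partner of laminin-binding integrins, fell by 0.38 in C4 (adjusted p = 0.0188).

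A further list held 42 measured genes, mostly of other matrix glycoproteins and proteoglycans. Of these, 5 rose and 4 fell in C4, beside 5.65% and 3.55% of all genes, and 22 stayed under 4 on all arrays. The list also holds Tgfb1, Tgfb2, Tgfb3, Ptprz1 and Dag1, none of which was called in C4. Sparcl1 (hevin), an astrocyte protein of the SPARC family, fell by 1.36 (adjusted p = 1.43e-04), and its relative Sparc fell by 0.39 (adjusted p = 9.69e-04). Matn2 fell by 0.36 (adjusted p = 0.0135) and Ltbp3, which binds latent TGF-beta, by 0.41 (adjusted p = 0.0307). Smoc1, also of the SPARC family, rose by 1.13 (adjusted p = 0.0011) and the fibulin Fbln2 by 1.22 (adjusted p = 0.00269). The lectican Ncan rose by 0.38 (adjusted p = 0.00419) and the basement membrane proteoglycan Agrn by 0.49 (adjusted p = 0.0104). In C2, Sparc fell by 0.18 (adjusted p = 0.0431) and Matn2 by 0.39 (adjusted p = 0.0275), and 0 of the list rose at an adjusted p under 0.05. At an unadjusted p under 0.05, 3 were higher in C2, and the share of all genes under that level was not counted.

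Of 45 measured genes of the intracellular adhesion complex, 6 rose and 0 fell in C4, beside the same 5.65% and 3.55% of all genes. Vcl, at -0.29, was close to a call (adjusted p = 0.0501). At an unadjusted p under 0.05, 11 were higher and 5 lower, and the share of all genes under that level was not counted. One of the 6, Lims2, was under the floor, 11 genes stayed under 4 on all arrays, and the median difference was 0.04. Kank1, a talin-binding protein, rose by 0.71 (adjusted p = 5.79e-04), Fermt2 (kindlin-2), which activates integrins with talin, by 0.31 (adjusted p = 0.00138) and Rsu1, a partner of the PINCH proteins, by 0.31 (adjusted p = 0.0058). Lims2, a PINCH gene, differed by 0.70 (adjusted p = 0.00663).

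**Figure D4:**
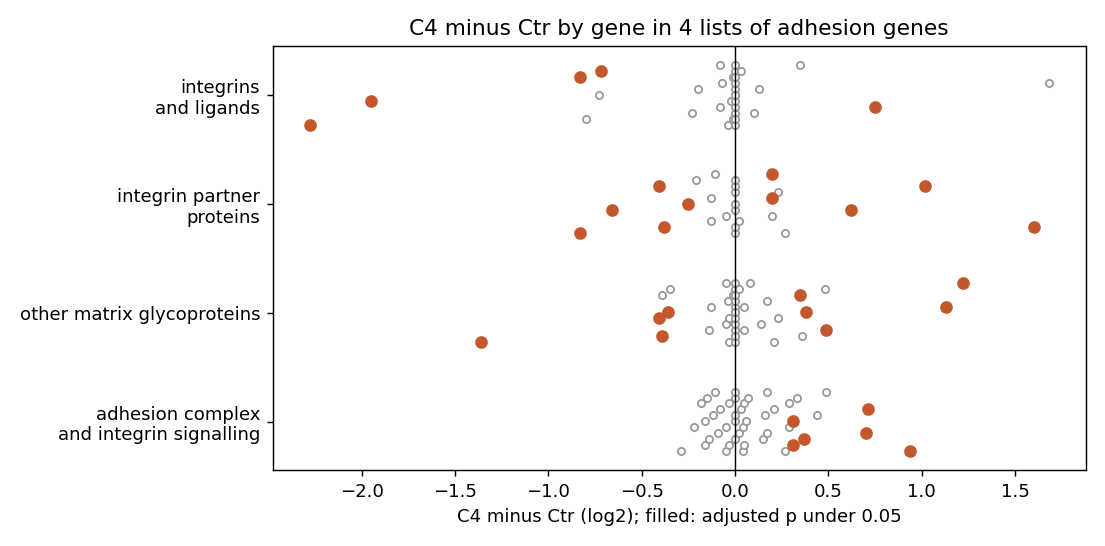
Difference between C4 and Ctr (log2) of each gene in 4 lists: the integrins and ligands (33 genes), integrin partner proteins, mostly of the membrane (26), a list mostly of other matrix glycoproteins (42) and the adhesion complex (45). Filled points have an adjusted p under 0.05, and the 6 filled points of the adhesion complex lie above 0, with Lims2, which was under the floor, among them.

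Markers of neural stem and progenitor cells carried signal in 12 of 13 measured genes, of which 5 rose and 1 fell in C4 (median difference 0.30), while those of microglia, endothelial cells, pericytes and fibroblasts, and platelets were mostly at the floor. Of 13 microglia and macrophage markers, 12 were under 4 on all arrays, the exception being Cd68, which was lower in C4 (mean 5.10) than in Ctr (mean 7.82). Of 9 endothelial markers 8 were under 4, of 9 pericyte and fibroblast markers 7, and of 4 platelet markers 4. The summed linear level of the microglial list was 278 to 328 in Ctr, 276 to 286 in C2 and 106 to 112 in C4. Cd68 was the only marker in this sum that passed 4 and the only one called in C4. The defining genes Aif1, Cx3cr1, P2ry12 and C1qa were at or near the floor in all conditions. Of all genes, 5.65% rose and 3.55% fell in C4, and 1.67% rose and 0.846% fell in C2. Of 8 oligodendrocyte lineage markers, 5 rose in C4 and 2 fell in C2, and 3 were under 4 on all arrays. The summed level of the list, most of it from Olig1 (mean log2 value 14.04 in C4 and 13.78 in Ctr), was 15533 to 16820 in Ctr, 15352 to 15945 in C2 and 19358 to 20187 in C4. In the astrocyte list, 4 of 8 markers rose in C4 and 1 fell in C2, while Gfap had means under 4 in all conditions and was not called. The sums of this list were 20967 to 22073 in Ctr, 20928 to 21210 in C2 and 25065 to 25705 in C4. Aldoc stood highest in it (mean log2 value 13.70 in C4 and 13.47 in Ctr). Of 11 neuroblast and neuron markers measured, 7 were under 4 on all arrays, 1 rose and 1 fell in C4, and 1 fell in C2. Of 6 olfactory ensheathing cell markers measured, 4 were under 4 on all arrays. The others, Fabp7 and S100b, rose in C4, and each also stands in the stem cell or the astrocyte list. The part of these shifts in the changes of Itga4, Itga8, Itgb5, Npnt, Tnc and Tnr was not tested.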

How the data were processed

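RNA of aOBSC neurospheres was hybridised to 9 Affymetrix GeneChip mouse arrays, 3 for each of the 3 conditions. The values are on a log2 scale and were deposited by the authors after GCRMA, which corrects the background by probe sequence, normalises across arrays and gives 1 value per probe set; its version is not given in the sources used here. They were used without further scaling. The table holds 45101 probe sets, of which 64 are controls, so that 45037 entered the tests. Genes were named from the platform annotation, and the value of a gene is that of its brightest probe set on average. Precision is limited by having 3 arrays per condition.

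Conditions were compared with limma 3.58.1 in R 4.3.3: all 9 arrays, 1 mean per condition, a variance prior that follows intensity (residual df 6, prior df 0.574), and a script tested on simulated data. Adjustment was by Benjamini and Hochberg over the 45037 probe sets of a comparison, and a call is an adjusted p under 0.05. Intervals are the fit's 95% intervals for single probe sets. A log2 value of 4 was taken as the floor. Alternatives were the fit of only the arrays compared, the replicate number as a block, a filter on dim probe sets, other variance priors, median centring, means over the probe sets of a gene, and each array left out.

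Members and lists were chosen with earlier results of these data known. Every member gene is named. Values per array are given for Npnt and for genes called with a difference of at least 0.3 whose higher condition averages at least 4, and of 3 related lists up to 4 genes in each direction with the smallest p in C4 are named. The values per array of Itga5, Itgb1, Itgb8, Fn1, Tnr, Vcam1 and Mfge8, and the marker genes named, were chosen after their values were seen. Promoter windows are those of RefSeq (GRCm38.p6), matched by symbol with Python 3.11.15.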

Additional observations from a re-analysis of the deposited data

How the results depend on the processing

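In C4 against Ctr, 9 member probe sets were called. The count was 14 after a filter on dim probe sets and 14 with arrays centred on their median, and 6 with only the arrays compared and 6 with the robust option. Calls over all probe sets, 1702 higher and 1131 lower before, rose as well. They were 2818 higher and 1879 lower of the 18380 that the filter kept, and 1761 higher and 2039 lower with the centring. For the other alternative fits, in all comparisons, calls over all probe sets were not counted. Their member counts therefore do not show whether the members moved apart from the rest. The filter and the centring both kept the 9 calls and added probe sets of Itga4, Itga5, Itgb1 and Tnc, the filter also of Itgb8 and the centring also of Tnr. Leaving out each array in turn gave 6 to 9 calls. In C2 against Ctr, the dim filter called 1169 higher and 656 lower over the probe sets it kept, beside 507 and 260 without it. The member count of 1 became 3 with the dim filter, 0 with the robust option, 0 at a difference of at least 1, and 0 to 2 when arrays were left out. It became 2 with only the arrays compared, where Npnt lost its call (adjusted p = 0.0559) and Itga4 (0.01) and Fn1 (0.0292) gained one. In C4 against C2, the 9 calls became 15 with centring and were 9 to 10 when arrays were left out. Over all probe sets, centring gave 1564 higher and 1655 lower in that comparison, beside 1286 and 1077 without it. With the replicate number as a block (replicate block), the calls were 8 in C4 against Ctr, 0 in C2 against Ctr and 8 in C4 against C2; in C4 against Ctr, Itgb1 gained a call (adjusted p = 0.0438) and the representing probe set of Itgb5 lost its own (0.0751). The labels share only a number. Correlations of same-numbered arrays ran from -0.043 to 0.126, and those of differently numbered arrays from -0.122 to 0.092. Correlations this small cannot decide whether same-numbered arrays came from paired cultures. By gene, Npnt, Itga8, Itga4 and Tnc kept their call in C4 against Ctr in 16 of 16 alternatives, but the mean over all probe sets of a gene, those at the floor included, gave -0.72 for Npnt and -1.15 for Itga8. Itgb5 kept its call in 7 of 16, with an adjusted p of up to 0.0993, and Npnt in C2 against Ctr in 8 of 16, with an adjusted p of up to 0.111; the cause was not tested. No called difference changed sign. Signal limits the 19 genes at the floor, Itga8 in C2 and C4, 1 Itgb5 probe set in Ctr and C2, and Tnr in all conditions.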
